A study of Mus musculus with 10 samples.

Results

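The genes described here are the 34 genes of glycolysis, lactate handling and the hypoxia-inducible factor (HIF) response named by symbol: the glucose transporters Slc2a1 and Slc2a3, the isozymes of each glycolytic step, the regulators that set fructose 2,6-bisphosphate, the lactate dehydrogenases and lactate carriers, the HIF alpha subunits and prolyl hydroxylases, and the HIF target Bnip3. All 34 were found among the 40503 genes of the deposited gene table, and their 217 transcripts among 84046 transcripts. RNA was sequenced from gonadal white adipose tissue of 12-week-old female C57BL/6 mice, 5 labelled KO and 5 labelled WT. The KO animals carry an inducible deletion of Med19 in adipose tissue (Med19-iAKO), a gene for a component of the Mediator coactivator, through which transcription factors reach the polymerase. Tamoxifen at 100 mg/kg was given to the Med19-iAKO mice for 5 days and the tissue was taken 14 days after it. The labels do not name the promoter that drives the Cre recombinase, nor say whether the control mice were given tamoxifen, so the deletion and the drug cannot be told apart here.

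Glycolysis splits glucose into pyruvate, and lactate dehydrogenase converts pyruvate to lactate, which leaves or enters the cell through monocarboxylate carriers. In white fat cells, insulin brings glucose in through the carrier GLUT4, part of the glucose carbon becomes glycerol and fatty acid, and part is released as lactate. HIF-1 and HIF-2 are pairs of an oxygen-regulated alpha subunit (Hif1a, Epas1) with the partner ARNT; prolyl hydroxylases (Egln genes) mark the alpha subunits for destruction when oxygen is present. Much of this control acts on proteins, so an RNA level is not a measure of HIF activity or of glycolytic flux.

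Values are RPKM, reads scaled to gene length and library size, and the libraries hold 14444803 to 20184282 reads assigned to genes. Each library is named by its group and animal number; per-library values are listed in the order KO 1, 4, 7, 8 and 17 and WT 2, 9, 19, 86 and 89. The p-values treat these 10 animals as independent, and the labels do not say that they were independent in litter or housing. Med19 itself was at 6.79 ± 0.85 RPKM in the KO group and 6.70 ± 0.89 in the WT group (SD, n = 5 each; exact permutation test, 2-sided, p = 0.881), so its RNA does not check the labels. Summed over 8 adipocyte markers, the RPKM came to 5268 to 5535 in the KO group and 13249.9 to 19298 in the WT group. Of those 8 markers 7 were lower, among them Adipoq (adiponectin) and Plin1 (perilipin). Marker counts here are of genes called by the test given below, at an adjusted p under 0.05. Over all tested genes 4.00% were called higher and 1.95% lower. In bulk tissue, fewer adipocytes and less RNA per adipocyte cannot be told apart. Neutrophil and monocyte markers summed to 479 to 852 RPKM against 208 to 394 (4 of 8 higher, S100a9 and Ccr2 among them), and macrophage markers to 3562 to 4566 against 2925 to 4045 (1 of 8 higher, Itgam). Fibroblast and progenitor markers summed to 1687 to 1981 RPKM against 1332 to 1619, without overlap (2 of 8 higher). Sums overlapped for endothelial markers (1 of 8 lower) and for smooth muscle and pericyte markers (2 of 8 lower). Skeletal muscle transcripts stood out in KO 1 (88.9 RPKM over 8 markers) and KO 4 (60.7), against 3.20 to 6.07 in the other KO-labelled libraries and 18.4 to 43.5 in WT. The brown-fat transcript Ucp1 was at 5.70 RPKM in KO 7 and 13.4 in WT 86, and at most 2.78 elsewhere. The part of these cell-type differences in the results was not tested; where a call described below was lost without KO 1 and KO 4 or without KO 7 and WT 86, the adjusted p without them is given beside it.

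The promoters of the 4 genes whose changes stood under the most re-analyses are shown first, because Pfkfb3 and Bnip3 are known HIF targets, Hif1a encodes the factor itself and Slc16a1 is the called lactate carrier. Each window is the 250 bases before a RefSeq transcription start (GRCm38.p6), 5′ to 3′ on the gene's strand. Capitals mark ACGTG or GCGTG, the core of the HIF response element, on either strand. CACGTG, the E-box, reads ACGTG on both strands and is counted on each. The windows are Bnip3 at chr7:138909507-138909756 (minus strand), Hif1a at chr12:73907617-73907866 (plus strand), Pfkfb3 at chr2:11502091-11502340 and chr2:11553930-11554179 (both minus strand), and Slc16a1 at chr3:104638414-104638663 (plus strand).
Bnip3: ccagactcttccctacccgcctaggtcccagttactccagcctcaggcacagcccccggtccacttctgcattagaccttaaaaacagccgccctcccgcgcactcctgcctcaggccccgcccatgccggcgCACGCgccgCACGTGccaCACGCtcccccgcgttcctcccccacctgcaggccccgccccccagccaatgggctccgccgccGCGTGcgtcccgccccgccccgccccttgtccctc
Hif1a: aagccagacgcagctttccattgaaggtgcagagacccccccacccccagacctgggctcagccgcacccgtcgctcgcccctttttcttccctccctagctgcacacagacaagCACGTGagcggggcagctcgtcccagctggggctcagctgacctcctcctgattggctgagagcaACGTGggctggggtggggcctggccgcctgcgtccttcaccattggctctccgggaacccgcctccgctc
Pfkfb3, downstream start: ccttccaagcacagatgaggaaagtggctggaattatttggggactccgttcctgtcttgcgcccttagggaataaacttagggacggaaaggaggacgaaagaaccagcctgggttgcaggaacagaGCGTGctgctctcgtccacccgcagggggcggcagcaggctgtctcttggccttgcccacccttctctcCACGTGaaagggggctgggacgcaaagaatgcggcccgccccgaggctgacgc
Pfkfb3, upstream start: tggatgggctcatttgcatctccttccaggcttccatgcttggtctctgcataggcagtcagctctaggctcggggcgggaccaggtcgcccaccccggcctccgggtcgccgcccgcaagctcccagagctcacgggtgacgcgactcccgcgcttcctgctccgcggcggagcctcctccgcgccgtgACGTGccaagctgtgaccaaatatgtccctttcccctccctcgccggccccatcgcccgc
Slc16a1: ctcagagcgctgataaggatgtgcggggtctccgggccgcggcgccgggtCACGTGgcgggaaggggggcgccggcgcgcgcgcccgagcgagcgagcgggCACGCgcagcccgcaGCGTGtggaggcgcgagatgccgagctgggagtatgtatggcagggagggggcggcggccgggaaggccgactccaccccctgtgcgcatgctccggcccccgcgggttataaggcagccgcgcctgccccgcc
The Bnip3 window holds ACGTG 2 times and GCGTG 3 times, the Slc16a1 window 2 of each, the Hif1a window ACGTG 3 times, and the Pfkfb3 windows ACGTG 2 times and GCGTG once at the downstream start and ACGTG once at the upstream start. Windows were found for 32 of the 34 genes (49 windows; none was found for Slc2a3 or Epas1). ACGTG was in 42.9% of these windows, against 16.6% of all 32851 windows in the table and 20.7% of the 14110 windows of tested genes. GCGTG was in 49.0%, against 28.2% and 42.3%, and CACGTG in 14.3%, against 6.02% and 8.00%. These matches describe letters in a short window and are not binding sites measured in this tissue. Windows of the same gene can overlap, as for Aldoa, Eno1 and Pfkm, so a site can be counted more than once. The set was named in part for the HIF response, and the shares were not tested.

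Of the 34 genes, 6 passed the test at an adjusted p under 0.05 (limma, adjusted over all 17038 genes tested): Hif1a, Slc16a1 and Pkm were higher in the KO-labelled libraries, and Pfkfb3, Pfkfb1 and Bnip3 were lower. Over all tested genes 4.00% were called higher and 1.95% lower, 5.95% in either direction. Without KO 1 and KO 4, 1 of the 34 was called higher (Slc16a1) and 1 lower (Pfkfb3), and without KO 7 and WT 86, 1 higher (Slc16a1) and 2 lower (Pfkfb3 and Bnip3). The share called higher depended on the scaling: 681 genes were higher and 332 lower with RPKM as deposited, 103 higher and 417 lower after median-ratio scaling, and 155 higher and 513 lower in a fit of whole reads recovered from the RPKM values (limma voom with trimmed-mean scaling). That voom fit called 2 of the 34 higher and 4 lower, losing Pkm and adding Hk2. The median log2 change of the 34 was 0.14, with 27 positive, beside 0.09 over all tested genes. After median-ratio scaling, and likewise in the voom fit, the medians were 0.05 and 0.01, 21 of the 34 were positive, and the sign of Pfkm, Bpgm, Eno1, Eno2, Ldha and Ldhb turned; none of these 6 was called. All 34 passed the filter of 0.5 RPKM in at least 5 libraries, Fbp1 with exactly 5. The groups did not overlap for 8 genes. All values of the KO group exceeded all values of the WT group for Pfkp, Tpi1, Pgk1, Pkm, Slc16a1 and Hif1a (6.96% of tested genes did so) and fell short of all of them for Pfkfb3 and Bnip3 (2.15%).

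**Figure D1:**
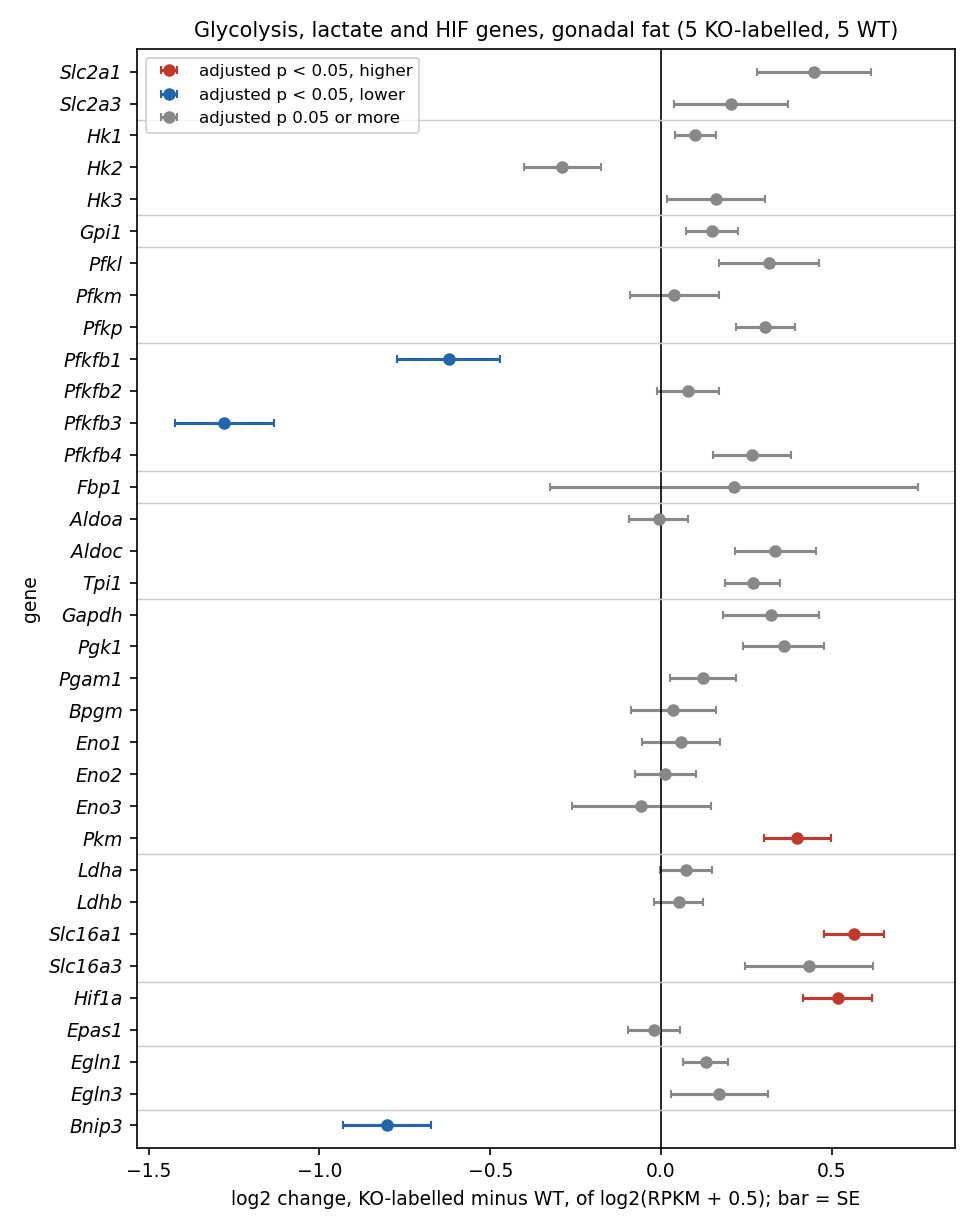
The horizontal axis is the log2 change of each of the 34 genes, KO-labelled minus WT, on the log2(RPKM + 0.5) scale, with bars of 1 SE from the fit to 5 and 5 libraries; genes are grouped by step and coloured by call. Pfkfb3, Bnip3 and Pfkfb1 lie to the left and Hif1a, Slc16a1 and Pkm to the right, while most enzymes lie between 0 and 0.45.

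Glucose enters through the transporters and is trapped by hexokinases. Slc2a1 encodes GLUT1, the insulin-independent carrier. The KO-labelled libraries held 27.7, 23.1, 17.6, 20.9 and 18.3 RPKM of it and WT held 15.4, 12.0, 21.9, 16.3 and 13.2. The groups overlapped only through WT 19, and the log2 change of 0.45 (SE 0.17) did not pass (adjusted p = 0.129). Slc2a3 (GLUT3, carried mostly by neurons and blood cells) was at 2.93 ± 0.84 RPKM against 2.43 ± 0.46 and was not called. Slc2a4, the gene of GLUT4, was taken from a list of neighbouring genes and was lower. Its values were 15.3, 19.5, 13.4, 12.5 and 17.9 RPKM against 24.1, 40.7, 27.6, 35.7 and 33.1, with no overlap (log2 change -1.01, SE 0.16, adjusted p = 0.0064). The call was lost without KO 7 and WT 86 (adjusted p = 0.0512) and without WT 86 and WT 89 (0.0715).

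The ratio of GLUT1 to GLUT4 transcripts (Slc2a1 to Slc2a4) was 1.81, 1.18, 1.31, 1.67 and 1.02 in the KO-labelled libraries and 0.638, 0.294, 0.794, 0.458 and 0.399 in WT, so GLUT4 RNA exceeded GLUT1 RNA per length in every WT library and in none of the others. On the log2 scale the ratio was higher by 1.49 (exact permutation test, 2-sided, p = 0.00794, the smallest that assignments of 5 and 5 libraries allow; adjusted over 10 ratios, 0.0397). Leaving out each library in turn gave 1.31 to 1.67, with adjusted p of 0.0397 to 0.0794. The ratio passed in 1 of these 10 fits. The groups stay separate whichever library is left out, and fewer libraries allow fewer assignments. Each of these fits is therefore at or near the lowest p that the test can give. The count of passing fits cannot show whether the ratio is steady. Ratios are free of scaling between libraries, but adipocyte markers fell with Slc2a4, as given above.

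Hexokinases phosphorylate glucose; Hk1 is the housekeeping form, Hk2 the insulin-responsive form of fat and muscle, and Hk3 a form of myeloid cells. Hk1 was at 10.7 ± 0.49 RPKM against 9.91 ± 0.69 and Hk3 at 17.7 ± 3.0 against 15.8 ± 2.8; neither passed. Hk2, the most abundant of the 3 in the gene table, was at 22.3 ± 3.2 RPKM against 27.3 ± 3.7 (log2 change -0.29, SE 0.11, adjusted p = 0.146). In the transcript table summed per gene, Hk1 was at 25.5 ± 1.8 RPKM against 22.2 ± 2.9 and Hk2 at 24.3 ± 6.8 against 27.4 ± 8.5. By those means Hk2 was the most abundant only in WT. In the voom fit of recovered reads Hk2 was called lower (log2 change -0.39, adjusted p = 0.0411). The Hk2 to Hk1 ratio in the gene table was 2.08 in the KO-labelled and 2.74 in the WT libraries as geometric means. Its log2 difference of -0.40 did not pass (exact permutation p = 0.0476, adjusted 0.127). Gpi1, the isomerase of the next step, was at 41.9 ± 1.85 RPKM against 37.9 ± 4.05 and was not called.

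Phosphofructokinase makes the committed step, and Pfkl, Pfkm and Pfkp encode the liver, muscle and platelet forms. In the gene table Pfkl was the most abundant, at 48.8 ± 10.7 RPKM against 38.7 ± 5.8. Pfkp followed at 12.0 ± 0.60 against 9.64 ± 1.23 and Pfkm at 9.11 ± 1.55 against 8.84 ± 1.42. Pfkp lay above WT in all 5 KO-labelled libraries (11.1 to 12.7 RPKM against 8.02 to 10.8) and missed the threshold (log2 change 0.31, SE 0.09, adjusted p = 0.0609). Pfkl and Pfkp passed only where the transcript table was summed per gene (adjusted p = 0.0266 and 0.0459). In those sums Pfkl was at 59.0 ± 7.3 RPKM against 42.2 ± 2.9 and Pfkp nearly level with it, at 54.8 ± 3.3 against 41.0 ± 5.1. The ratio that follows is therefore of gene-table values only. The Pfkl to Pfkp ratio was 4.01 in both groups (exact permutation p = 1).

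The largest change of the set was in the enzymes that set fructose 2,6-bisphosphate, the activator of phosphofructokinase. Each PFKFB protein has a kinase that makes it and a phosphatase that removes it, and in Pfkfb3 the kinase prevails. Pfkfb3 was at 19.2, 18.5, 24.4, 23.0 and 18.6 RPKM in the KO group and 47.8, 40.9, 53.8, 71.5 and 44.7 in WT. Every KO-labelled library lay below every WT library, and its level was 2.43-fold lower (log2 change -1.28, SE 0.15, adjusted p = 0.00083). The call held in all 23 re-analyses, at log2 changes of -1.39 to -1.16.

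Pfkfb1, the form known from liver and muscle, was at 5.95, 5.69, 4.76, 4.42 and 7.48 RPKM against 7.77, 10.2, 7.00, 10.9 and 8.88. Here the groups overlapped, since KO 17 lay above WT 19, and the log2 change was -0.62 (SE 0.15, adjusted p = 0.0404). That call was lost when any of KO 1, KO 4, KO 7, KO 8, WT 9, WT 86 or WT 89 was left out (adjusted p = 0.0546 to 0.0886, log2 change -0.64 to -0.55), as it was without the filter on low values (0.0717), without KO 1 and KO 4 (0.119), without KO 7 and WT 86 (0.150), without WT 86 and WT 89 (0.201) and in the transcript sums (0.0772). Pfkfb2, the heart form, was at 2.72 ± 0.34 RPKM against 2.55 ± 0.20, and Pfkfb4, a form whose phosphatase also acts, at 13.8 ± 1.9 against 11.4 ± 1.6 (log2 change 0.27, SE 0.11, adjusted p = 0.181). Neither was called, so 2 of the 4 PFKFB genes were called lower, beside 1.95% of all tested genes. Of these 2 calls only that of Pfkfb3 held in all re-analyses. The Pfkfb3 to Pfkfb1 ratio was 3.71 against 5.74 (log2 difference -0.63, exact permutation p = 0.0635, adjusted 0.127) and did not pass. Fbp1, the opposing fructose 1,6-bisphosphatase, was near the floor: it had from 1 read in KO 8 to 100 reads in KO 4, and 0.0383 to 2.91 RPKM in the KO-labelled libraries against 0.110 to 1.22 in WT.

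At the transcript level 44475 transcripts were tested, of which 0.452% were lower and 0.0922% higher. Of the 155 tested transcripts of the 34 genes, 7 were called and all 7 were lower, 4 of them from Pfkfb3. ENSMUST00000170196 of Pfkfb3 and ENSMUST00000179738 of Eno3 passed the filter of 0.5 RPKM only through the WT libraries. They could be called only as lower, so their direction is not a result. The most abundant form, ENSMUST00000114846, carried 36.5% of the summed Pfkfb3 level in the KO-labelled and 35.2% in the WT libraries, at 15.2 ± 2.6 RPKM against 37.0 ± 8.9 (log2 change -1.24, adjusted p = 0.0091). ENSMUST00000049849 (3.66 ± 0.81 against 9.25 ± 1.32 RPKM) and the retained-intron form ENSMUST00000155167 (6.00 ± 1.07 against 13.9 ± 3.4) fell by similar steps, at log2 changes of -1.24 and -1.13. The protein-coding form ENSMUST00000170196 was listed at 0 in all 5 KO-labelled libraries and at 7.51, 4.25, 15.98, 6.65 and 4.13 RPKM in WT. A listed 0 can be a failed estimate in a table that divides reads among overlapping transcripts, so no fold is given for it. The Pfkfb1 form ENSMUST00000080884 was at 3.47 ± 0.98 RPKM against 8.06 ± 1.36 (log2 change -1.13, adjusted p = 0.0267), and its share of the gene was 24.0% against 38.1%; the share was not tested. The remaining called transcripts were a Bnip3 form, described with that gene, and a retained-intron form of Eno3, ENSMUST00000179738, at 0.0763 ± 0.171 RPKM against 1.29 ± 0.35.

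Aldolase and triose phosphate isomerase split and interconvert the trioses. Aldoa, the muscle-type aldolase and the most abundant of the 34 genes in the gene table, was at 314 ± 26 RPKM against 316 ± 28 (log2 change -0.01, SE 0.09). The interval of that change was -0.20 to 0.19. Aldoc, the brain-type form, was at 1.91 ± 0.18 RPKM against 1.43 ± 0.33; leaving out WT 2, the highest WT library at 1.96, gave it a call (log2 change 0.43, adjusted p = 0.0439), and with all libraries it had none (0.33, adjusted p = 0.115). Tpi1 was at 114 to 133 RPKM in the KO group and 86.7 to 113 in WT, without overlap, and its log2 change of 0.27 (SE 0.08) missed the threshold at an adjusted p = 0.0772.

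The lower steps, from glyceraldehyde 3-phosphate to pyruvate, could be read only in part, because the 2 deposited tables differ widely for 4 of these genes. The gene table held Gapdh at 11.7 RPKM, Pgam1 at 3.28, Eno1 at 12.1 and Pgk1 at 2.29 in WT on average, while the transcript table summed per gene held 979, 100.0, 255 and 28.9, which is 83.4, 30.5, 21.1 and 12.6 times as much. Over 14313 genes with both values the median ratio was 1.34, and 7.01% had a ratio of at least 5. Of the 50-base words in the main Gapdh transcript 94.6% also occur in another annotated gene (GENCODE M21), and 202 pseudogenes share such words. The share was 72.2% for Eno1, 68.0% for Pgk1 and 41.5% for Pgam1, against 0.0% for genes such as Slc16a1, Hk2 and Fbp1. The sources used here do not say how reads that map to several genes were counted, and the part of shared sequence in the difference between the tables was not tested. Genes whose words occur in no pseudogene differed too, Pfkp by 4.26 times with 0.0% of its words shared and Pfkfb2 by 5.78 times with 40.9% shared with 1 other gene. Their gene-table values correspond to lengths of 9395 and 7254 bases, while their main transcripts have 2679 and 2849. The part of gene length in the difference between the tables was not tested. The levels of Gapdh, Pgam1, Eno1 and Pgk1 are uncertain because the tables differ so much.

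**Figure D2:**
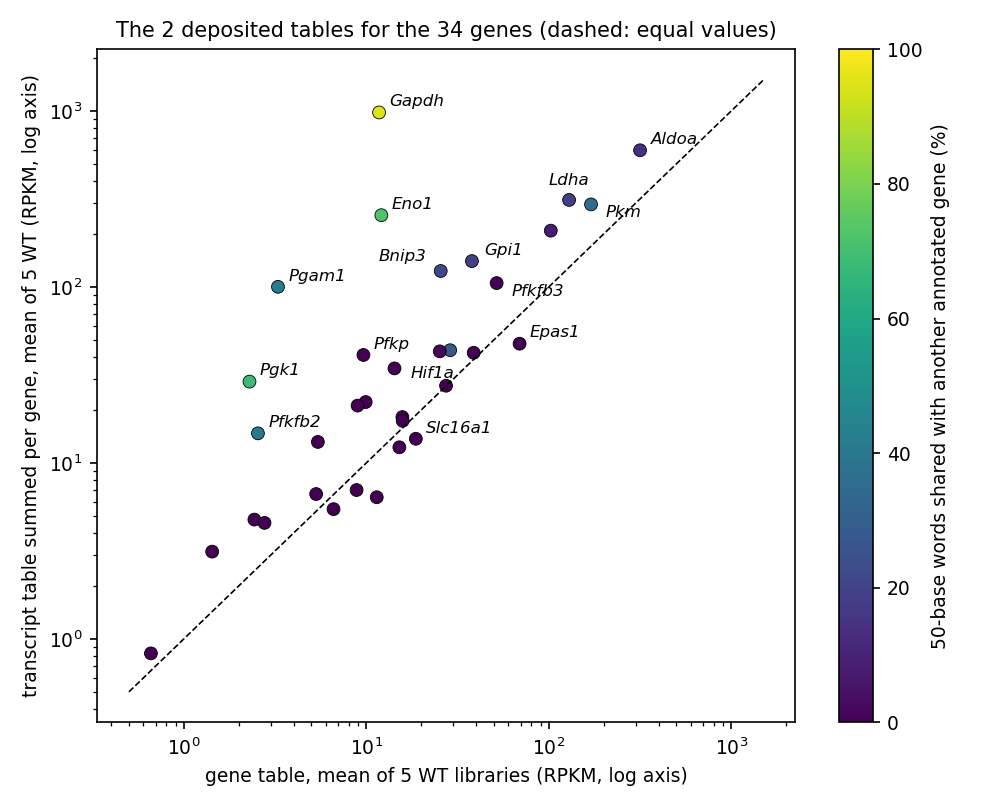
Each point is 1 of the 34 genes, with its mean over the 5 WT libraries in the gene table on the horizontal axis and in the transcript table summed per gene on the vertical axis (RPKM, both log axes). Colour gives the percent of 50-base words shared with another annotated gene; Gapdh, Eno1, Pgam1 and Pgk1 stand far above the dashed line of equal values.

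Gapdh, the oxidising step, was at 13.3, 22.4, 13.9, 13.9 and 12.2 RPKM in the gene table against 11.8, 12.3, 12.4, 11.3 and 10.9, with KO 4 high. Its log2 change was 0.32 (SE 0.14, adjusted p = 0.186) there and -0.03 in the transcript sums (957 ± 106 against 979 ± 82 RPKM), so its sign differed between the tables. Pgk1, the kinase that makes ATP from that product, was at 2.71 to 4.06 RPKM against 1.88 to 2.69 in the gene table and at 41.5 ± 6.1 against 28.9 ± 7.2 in the transcript sums. Its log2 changes of 0.36 and 0.54 did not pass in either (adjusted p = 0.0942 and 0.154). Pgam1, the mutase, was 0.12 higher (log2) in the gene table and 0.29 in the transcript sums, where the groups did not overlap (111 to 136 against 91.7 to 106 RPKM) and the adjusted p was 0.0966. Bpgm, which makes the red-cell regulator 2,3-bisphosphoglycerate, was at 2.89 ± 0.64 RPKM against 2.77 ± 0.23.

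The 3 enolases make phosphoenolpyruvate. Eno1, the general form, was at 12.4 ± 0.61 RPKM against 12.1 ± 2.3, and Eno2, the neuronal form, at 5.45 ± 0.34 against 5.42 ± 0.71. Eno3, the muscle form, was at 6.36, 8.17, 3.66, 3.86 and 4.30 RPKM against 4.29, 5.60, 5.78, 6.28 and 4.58. Its highest values were in KO 1 and KO 4, the libraries with the most skeletal muscle transcripts. Without both its log2 change moved from -0.06 to -0.38 (adjusted p = 0.149), but that sets KO-labelled libraries with 3.20 to 6.07 RPKM of muscle markers against WT libraries with 18.4 to 43.5, so the groups then differ in muscle transcripts. None of the 3 was called.

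Pkm, pyruvate kinase of muscle and most other tissues, was higher. Its values were 251, 216, 215, 224 and 211 RPKM against 191, 152, 185, 182 and 142, without overlap (log2 change 0.40, SE 0.10, adjusted p = 0.0428). The call was the least steady of the 6. It was lost when any library except WT 2 was left out (KO 1, 4, 7, 8 or 17 or WT 9, 19, 86 or 89; adjusted p = 0.0534 to 0.101) and also without the filter on low values (0.0678), after median-ratio scaling (0.138), in the voom fit (0.0720), without KO 1 and KO 4 (0.141), without KO 7 and WT 86 (0.106), without WT 86 and WT 89 (0.168) and in the transcript sums (0.0686), while the log2 change stayed between 0.31 and 0.44 in all re-analyses. The form ENSMUST00000034834 made up 91.6% of the summed Pkm level in the KO-labelled libraries and 90.5% in WT (362 ± 41 against 266 ± 32 RPKM), and ENSMUST00000163694 8.43% and 9.49% (33.3 ± 1.6 against 27.9 ± 6.6). Neither form was called. Of the Pkm words 34.4% occur in another annotated gene.

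Neither lactate dehydrogenase gene was called. Ldha, the form that favours lactate production, was at 136 ± 9 RPKM against 129 ± 10 (log2 change 0.07, interval -0.10 to 0.24), and Ldhb, the heart form, at 29.9 ± 2.7 against 28.8 ± 1.8 (0.05, interval -0.11 to 0.21). Their ratio was 4.54 against 4.48 (exact permutation p = 0.833).

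Of the 2 lactate carriers, Slc16a1 was called and Slc16a3 was not. Slc16a1 encodes MCT1, the widely expressed monocarboxylate carrier, and was at 31.4, 30.2, 24.6, 23.6 and 30.3 RPKM against 17.8, 18.5, 17.9, 19.97 and 19.2. The 2 groups were fully separate, with the KO-labelled values 1.48-fold higher on average (log2 change 0.56, SE 0.09, adjusted p = 0.0061), and the call held in all 23 re-analyses (0.47 to 0.63). Slc16a3, the gene of the export carrier MCT4, was at 19.6, 23.5, 18.1, 17.5 and 15.99 RPKM against 15.0, 9.88, 20.002, 16.1 and 10.3. Its log2 change of 0.43 (SE 0.19) was not called (adjusted p = 0.186), the groups overlapping through WT 19 and WT 86. The Slc16a1 to Slc16a3 ratio was 1.48 against 1.36 (exact permutation p = 0.571), so a difference in change between the carriers was not shown.

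Of 46 neighbouring genes of glucose, pyruvate and lactate metabolism, 41 were tested, 4 were higher and 3 lower, beside 4.00% and 1.95% over all tested genes, and the median log2 change was 0.01. The 4 with the largest changes were Hcar1, Slc2a4, Emb and Bsg. Bsg encodes basigin, the partner that MCT1 and MCT4 need to reach the membrane. It was at 246, 267, 276, 255 and 239 RPKM against 168, 171, 160, 156 and 143, a clear gap (log2 change 0.68, SE 0.07, adjusted p = 0.00058). Emb encodes embigin, a related partner of monocarboxylate carriers, and was at 42.7, 33.4, 31.8, 32.6 and 39.6 RPKM against 17.5, 23.1, 20.4, 19.1 and 25.6 (log2 change 0.76, SE 0.12, adjusted p = 0.0059). Both calls held in all 23 re-analyses.

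Hcar1 encodes the lactate receptor of fat cells, which restrains lipolysis. It was at 7.41, 4.56, 9.36, 6.10 and 5.25 RPKM against 16.1, 11.1, 13.6, 18.4 and 11.1, without overlap (log2 change -1.06, SE 0.20, adjusted p = 0.0160). The call was lost without KO 1 and KO 4 (adjusted p = 0.0742) and without WT 86 and WT 89 (0.0735). A carrier and both carrier partners were higher and the receptor lower. The other 3 calls, named here after their values were seen, were Pdha1, Pgm2 and Got1. Pdha1, a subunit of pyruvate dehydrogenase, was at 44.2 ± 4.7 against 64.9 ± 8.2 RPKM (log2 change -0.54, adjusted p = 0.0155) and lost its call without KO 7 and WT 86 (0.0823) and without WT 86 and WT 89 (0.0505). Pgm2, a phosphoglucomutase, and Got1, an aspartate aminotransferase (log2 change 0.33 and 0.28), each lost the call on leaving out 8 of the 10 libraries, without KO 1 and KO 4 (adjusted p = 0.0554 and 0.128), without KO 7 and WT 86 (0.121 and 0.143), in the voom fit (0.168 and 0.250) and after median-ratio scaling (0.166 and 0.238).

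**Figure D3:**
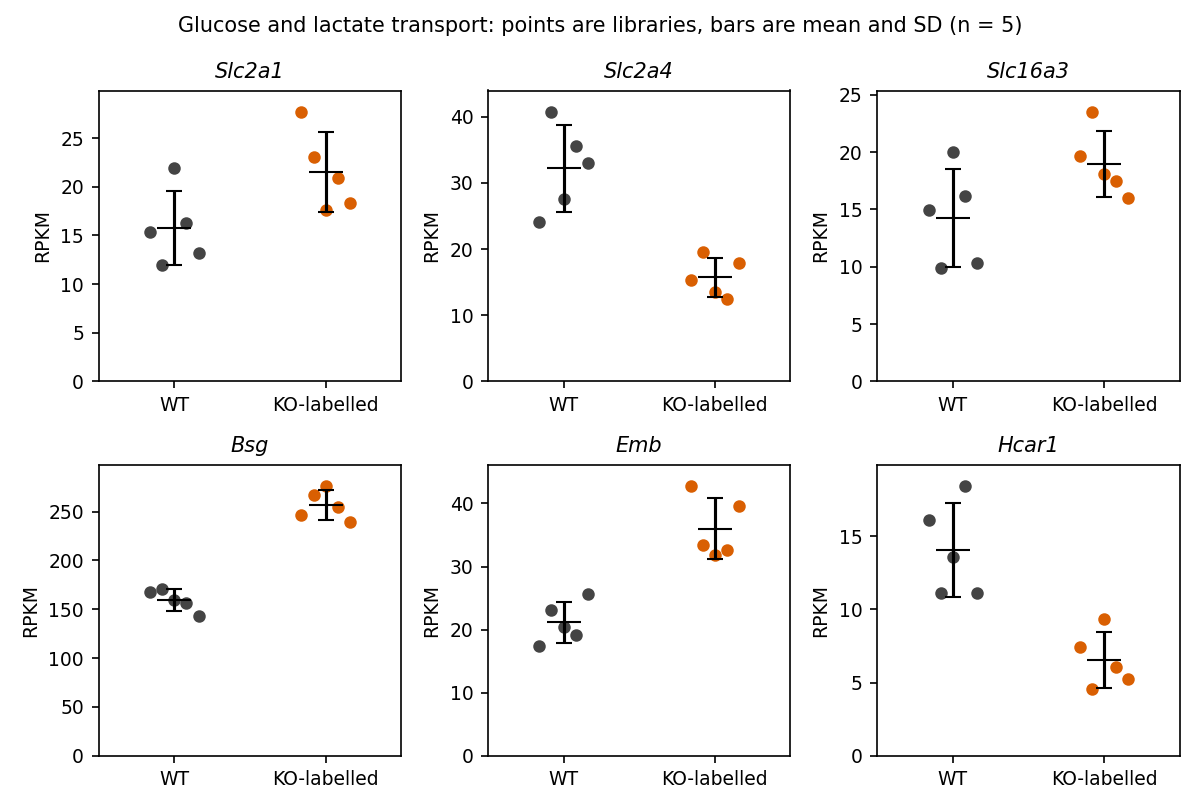
Panels give RPKM (vertical axes from 0) of genes of glucose and lactate transport and sensing, with each point a library and bars for mean and SD (n = 5 per group). Bsg and Emb lie higher and Slc2a4 and Hcar1 lower in all KO-labelled libraries, while Slc2a1 and Slc16a3 overlap.

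Among the HIF factors, Hif1a was higher and Epas1 was not. Hif1a was at 41.6, 31.3, 41.6, 36.7 and 31.4 RPKM in the KO group and 29.3, 24.1, 23.9, 25.2 and 23.7 in WT. The groups did not overlap, with WT 2 the nearest WT library (log2 change 0.52, SE 0.10, adjusted p = 0.0189). The call held on leaving out each library in turn (0.47 to 0.57). It was lost after median-ratio scaling (0.43, adjusted p = 0.0800) and quantile normalization (0.43, 0.0614), without KO 1 and KO 4 (0.52, 0.0587), without KO 7 and WT 86 (0.47, 0.0852), without WT 86 and WT 89 (0.49, 0.127) and in the transcript sums (0.37, 0.226). Epas1, the gene of HIF-2 alpha, was at 68.0 ± 4.8 RPKM against 69.1 ± 6.0 (log2 change -0.02, interval -0.19 to 0.15).

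Per length, Epas1 RNA exceeded Hif1a RNA in every library of the gene table. In the transcript sums Hif1a was at 56.1 ± 11.5 RPKM and Epas1 at 47.6 ± 3.5 in the KO group. In WT they were at 43.0 ± 5.6 and 47.5 ± 5.3. There Hif1a exceeded Epas1 in KO 1, KO 4, KO 7, WT 2 and WT 86. The Hif1a to Epas1 ratio in the gene table was 0.681, 0.474, 0.602, 0.497 and 0.448 in the KO-labelled libraries and 0.445, 0.307, 0.338, 0.379 and 0.373 in WT. KO 17 and WT 2 were nearly level. The log2 difference was 0.55 (exact permutation p = 0.00794, the smallest possible; adjusted over 10 ratios, 0.0397). Leaving out each library in turn gave 0.46 to 0.62, with adjusted p of 0.0397 to 0.0794. The ratio passed in 1 of these 10 fits. The groups stay separate whichever library is left out, and fewer libraries allow fewer assignments. Each of these fits is therefore at or near the lowest p that the test can give. The count of passing fits cannot show whether the ratio is steady.

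The prolyl hydroxylases Egln1 (PHD2, the main oxygen sensor of HIF-1) and Egln3 (PHD3, itself induced by HIF) did not pass. Egln1 was at 16.7 ± 1.5 RPKM against 15.2 ± 0.53 and Egln3 at 7.41 ± 0.99 against 6.61 ± 1.54. Of 9 other genes of the pathway 8 were tested and 1 was called higher, beside 4.00% higher and 1.95% lower over all tested genes. It was Cited2, which competes with HIF for the coactivators, at 20.3 ± 4.1 RPKM against 12.6 ± 1.4 (log2 change 0.65, SE 0.14, adjusted p = 0.0251). Its call was lost without KO 1, KO 7, WT 9 or WT 19 (adjusted p = 0.0538 to 0.0699). It was also lost after median-ratio scaling (0.0803) and quantile normalization (0.0665), without KO 1 and KO 4 (0.0933), without KO 7 and WT 86 (0.0823), without WT 86 and WT 89 (0.0801) and in the transcript sums (0.0570). Egln2, a further hydroxylase, was at 28.8 ± 5.3 RPKM against 32.1 ± 4.0 and Crebbp, a coactivator, at 24.2 ± 2.2 against 21.3 ± 0.98; neither was called.

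Bnip3, a mitochondrial receptor for mitophagy and a well-known HIF-1 target, went the other way from Hif1a. It was at 13.6, 13.4, 14.4, 12.8 and 17.2 RPKM against 21.7, 34.6, 21.6, 24.4 and 25.4. Every KO-labelled library lay below every WT library, 1.74-fold lower (log2 change -0.80, SE 0.13, adjusted p = 0.0069). The call held on leaving out each library in turn (-0.87 to -0.69) and was lost without KO 1 and KO 4 (-0.76, adjusted p = 0.0650) and without WT 86 and WT 89, which leaves the animals numbered under 20 (-0.81, 0.0605). Of its words 21.9% occur in another annotated gene, among them 4 pseudogenes, and the transcript sums gave 63.4 ± 5.0 RPKM against 123 ± 21 (log2 change -0.94, adjusted p = 0.0010). The main form, ENSMUST00000106112, was at 33.1 ± 6.4 RPKM against 65.4 ± 10.8 (log2 change -0.98, adjusted p = 0.0242).

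**Figure D4:**
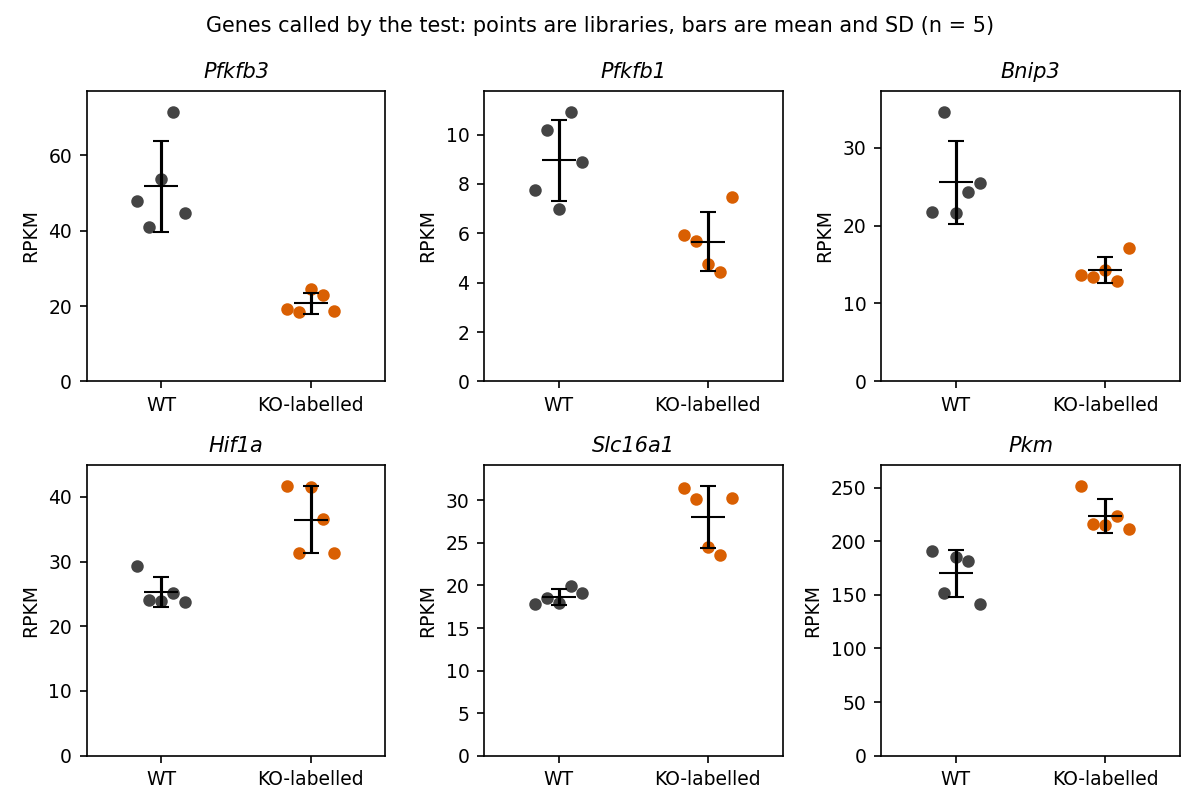
Panels give RPKM (vertical axes from 0) of the 6 called genes, with each point a library and bars for mean and SD (n = 5 per group). The groups are separate for Pfkfb3, Bnip3, Hif1a, Slc16a1 and Pkm and overlap for Pfkfb1.

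A list of 30 further HIF targets was read beside the HIF genes. All 30 were tested, 6 were higher and 2 lower (beside 4.00% and 1.95% over all tested genes), and the median log2 change was 0.21 with 25 positive, beside 0.09 over all tested genes. The 4 with the largest changes went both ways. Plod2, a collagen lysyl hydroxylase, was at 39.3 ± 3.0 RPKM against 24.7 ± 4.8 (log2 change 0.68, SE 0.13, adjusted p = 0.0171). Angptl4, a lipoprotein lipase inhibitor that PPAR factors also induce, was at 84.6 ± 4.2 against 57.8 ± 9.6 (0.56, SE 0.11, 0.0175). Vegfa, the angiogenic growth factor, was at 28.7, 25.6, 40.4, 36.1 and 25.9 RPKM against 46.2, 57.5, 49.7, 52.7 and 38.2 (log2 change -0.64, SE 0.15, adjusted p = 0.0344), with KO 7 above WT 89. Tfrc, the transferrin receptor, was at 8.95 ± 1.51 RPKM against 16.2 ± 5.3 (-0.78, SE 0.19, 0.0439).

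Plod2 and Angptl4 kept their calls on leaving out each library in turn and lost them without KO 1 and KO 4 (adjusted p = 0.0772 and 0.0916), Plod2 also in the transcript sums (0.0719). Vegfa lost its call without KO 1, KO 4, KO 17, WT 2, WT 9, WT 19 or WT 86 (adjusted p = 0.0510 to 0.0828) and Tfrc without KO 1, KO 4, KO 7, KO 8, KO 17, WT 2, WT 19 or WT 89 (0.0544 to 0.0900). Both calls were also lost without the filter (0.0622 for Vegfa, 0.0744 for Tfrc), without KO 1 and KO 4 (0.137 and 0.109), without KO 7 and WT 86 (0.0563 and 0.0730) and without WT 86 and WT 89 (0.0916 and 0.0710). The other 4 higher genes, named after their values were seen, were P4ha1, Hilpda, Mif and Ero1l, at log2 changes of 0.49, 0.51, 0.39 and 0.36. P4ha1, a collagen prolyl hydroxylase, was called on leaving out any 1 library but not without KO 1 and KO 4 (adjusted p = 0.0522), without WT 86 and WT 89 (0.0516) or in the transcript sums (0.0686). Hilpda was called in 2, Mif in 1 and Ero1l in 4 of the 10 fits that leave out 1 library, and none of the 3 was called without KO 1 and KO 4 (0.139, 0.127 and 0.128), after median-ratio scaling (0.134, 0.128 and 0.105) or in the voom fit (0.0905, 0.113 and 0.0846). Without KO 7 and WT 86, Hilpda (0.118) and Ero1l (0.0956) were not called. With all libraries, calls among HIF targets went in both directions, with Bnip3, Pfkfb3 and Vegfa lower and Plod2, P4ha1 and Angptl4 higher; only the Pfkfb3 call of these 6 held without KO 1 and KO 4.

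**Figure D5:**
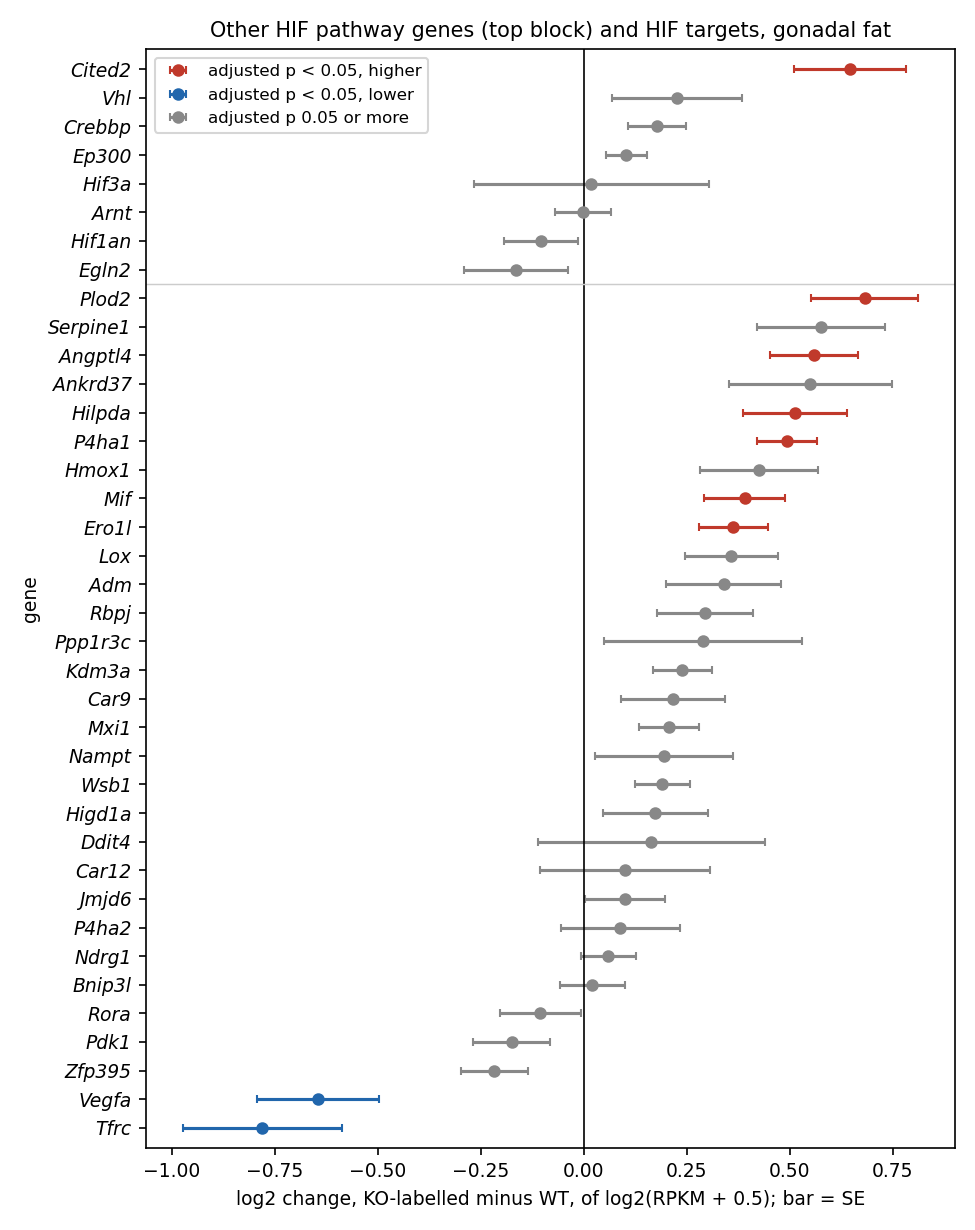
The horizontal axis is the log2 change, KO-labelled minus WT, on the log2(RPKM + 0.5) scale, with bars of 1 SE, for 8 other HIF pathway genes (top block) and 30 further HIF targets. Of the targets 6 are called higher and 2 lower, with Tfrc and Vegfa at the bottom.

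The genes that store glucose or govern its use in fat cells were read in the same way. Of 19 genes of glycogen metabolism 2 were lower and 1 higher, beside 1.95% and 4.00% over all tested genes, with a median log2 change of 0.00. Gys1, the main glycogen synthase outside the liver, was at 13.7, 11.8, 13.2, 11.5 and 12.9 RPKM against 17.7, 20.6, 19.4, 20.3 and 18.3 (log2 change -0.59, SE 0.07, adjusted p = 0.00074), a call that held in all 23 re-analyses. Gys2, the liver form, was at 0.602 ± 0.144 RPKM against 1.45 ± 0.59 (-0.79, SE 0.19, 0.0421) and lost its call on leaving out any library except WT 89, without KO 1 and KO 4 (0.121) and without KO 7 and WT 86 (0.106). Ppp1r3d, a targeting subunit for glycogen, was at 5.06 ± 0.89 against 3.66 ± 0.25 (0.41, SE 0.11, 0.0498) and lost its call on leaving out any library, without KO 1 and KO 4 (0.115), without KO 7 and WT 86 (0.109), after median-ratio scaling (0.114) and in the voom fit (0.0891).

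Of 21 insulin-signalling genes and transcription factors that act on glucose use, 19 were tested and 7 of them were lower, beside 1.95% lower over all tested genes; the others were not called (median log2 change -0.06). Pparg, the master factor of adipocytes and also on the adipocyte marker list, was at 29.7 ± 2.2 RPKM against 65.0 ± 9.96 (log2 change -1.11, SE 0.11, adjusted p = 0.00026). Sik2, a salt-inducible kinase abundant in fat cells, was at 14.0 ± 1.7 against 26.8 ± 1.7 (-0.92, SE 0.08, 0.00016). Mlxipl (ChREBP), the glucose-sensing factor, was at 12.1 ± 1.8 against 22.6 ± 5.2 (-0.86, SE 0.15, 0.0101; 0.0625 without KO 1 and KO 4, 0.0570 without KO 7 and WT 86 and 0.0689 without WT 86 and WT 89). Srebf1 (SREBP-1) was at 40.7 ± 4.3 against 72.9 ± 22.8 (-0.79, SE 0.17, 0.0303) and lost its call without KO 1, KO 7, KO 8, KO 17, WT 19 or WT 89 (0.0532 to 0.0783), without the filter (0.0543), without KO 1 and KO 4 (0.113), without KO 7 and WT 86 (0.0939) and without WT 86 and WT 89 (0.114). The other 3, named after their values were seen, were Irs1 (-0.63), Akt2 (-0.27) and Insr (-0.26), the substrate, kinase and receptor of the insulin cascade; on leaving out 1 library, Irs1 kept its call in 10 of 10 fits, Akt2 in 2 and Insr in 1. Without KO 1 and KO 4 none of the 3 was called (adjusted p = 0.0967, 0.127 and 0.164), and without KO 7 and WT 86 Akt2 (0.0956) and Insr (0.157) were not.

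The remaining ratios of isozymes were tested and did not pass: Aldoa to Aldoc was 165 against 225 (exact permutation p = 0.0635, adjusted 0.127), Eno1 to Eno3 2.48 against 2.27 (p = 0.635) and Egln3 to Egln1 0.442 against 0.427 (p = 0.817). Within the groups some libraries were the highest or the lowest more often than others across the set. In the KO-labelled group KO 4 was the highest library for 11 of the 34 genes and KO 1 for 10, and KO 7 was the lowest for 13. In the WT group WT 86 was the highest for 11 and WT 19 for 10, and WT 89 the lowest for 13. WT 19 was the highest WT library for Slc2a1, Slc16a3 and Egln3 (8.99 RPKM) together.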

How the data were processed

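Polyadenylated RNA of 5 KO-labelled and 5 WT libraries was compared. The authors deposited RPKM values per gene and per transcript; the unit is given per the file names. Tools named in the submitters' processing notes are STAR, featureCounts, Subread and bcl2fastq. Which genome build and annotation were used, how reads mapping to several genes were counted and what made the transcript table are not given in the sources used. Repeated rows held identical values and were used once. No per-sample column was left out.

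The main test was limma 3.58.1 (R 4.3.3) on log2(RPKM + 0.5), for genes with at least 0.5 RPKM in at least 5 of 10 libraries, with trended and robust moderation, 2-sided, and Benjamini-Hochberg adjustment over all 17038 genes tested. A gene was called at an adjusted p under 0.05. Fold changes are on that log2 scale, which understates changes of low genes, and intervals are 95% intervals of the fit. Whole reads recovered from the RPKM steps (100% of 25122 genes above 0 in at least 3 libraries, within 0.001 reads) gave the depth and, as an alternative, a limma voom fit with trimmed-mean (TMM) scaling for genes with at least 0.5 CPM in at least 5 libraries. For 10 ratios and Med19, exact permutation tests over all assignments of 5 and 5 libraries were used, on values of the gene table. Both fits were tested on simulated data. The members, lists, ratios and tests were chosen with earlier results of these data known. All 34 genes were named. From each other list the rule was to name up to 4 called genes with the largest change. Where fewer than 2 were called, it was up to 2 of the most abundant. Further called genes are named beyond that rule, and the text marks them as named after their values were seen. Promoters come from RefSeq (GRCm38.p6), and words of 50 bases were compared across GENCODE M21 transcripts.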

Additional observations from a re-analysis of the deposited data

Results flagged for a closer look

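In 68 groups of 5 libraries, 2 for each of the 34 genes, the highest or lowest library was compared with the rest of its group, and 3 stood apart by more than Dixon's 95% critical value of 0.71. Chance marks about 1 in 20 such groups. Hk1 was at 11.1 RPKM in WT 2, with the next WT library at 9.78. Hif1a was at 29.3 RPKM in WT 2, with the next at 25.2, and its call held without that library. Gapdh was at 22.4 RPKM in KO 4, with the next KO-labelled library at 13.9; in the transcript sums KO 4 was also the highest KO-labelled library, at 1138 RPKM.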

How the results depend on the processing

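Over 23 re-analyses of the 34 genes (each library left out in turn, and 13 others), no called gene changed sign. Members called higher were 3 and lower 3 with all libraries; leaving out each library gave 2 to 4 higher and 2 to 3 lower. Members called higher numbered 1 after median-ratio scaling, and 1 higher and 1 lower without WT 86 and WT 89 (animals numbered under 20) and without KO 1 and KO 4. Without KO 7 and WT 86 it was 1 higher. The last 2 settings and the transcript sums were chosen after seeing the data. Over all tested genes, 681 higher and 332 lower became 188 to 689 and 206 to 314 on leaving out each library, the lowest counts being without KO 1. Genes called higher numbered 292 without the filter, 103 after median-ratio scaling, 149 after quantile normalization and 144 in the transcript sums. Counts higher and lower were 72 and 139 for animals numbered under 20, 84 and 146 without KO 1 and KO 4, 118 and 164 without KO 7 and WT 86, and 155 and 513 with voom on recovered reads, which called 2 members higher and 4 lower. The cause was not tested, except that fewer samples enter where libraries are left out. Of the 28 uncalled members 4 were called under some alternative: Hk2 with voom (adjusted p = 0.0411), and Pfkl, Pfkp and Aldoc as given above. Fbp1 had from 1 read in KO 8 to 100 reads in KO 4, so its change is uncertain. No paired analysis was possible because no animal number occurs in both groups.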
